A study of Mus musculus with 18 samples.

Results

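Cells labelled Oct1 cKO were compared with parental cells after 2 days of differentiation in retinoic acid. The comparison held 3 libraries of each genotype, 6 of the 18 libraries of the study, chosen by the genotype and the differentiation day in the sample labels and by no measured value. Both groups were mouse embryonic stem cells (ESCs) plated on 0.01% gelatin and differentiated with 1.5 ug/ml retinoic acid. The Oct1 cKO group carried the genotype label Oct1_cKO and the source label KO, and the parental group carried the labels Parental and WT. Undifferentiated libraries of the same genotypes, at day 0, entered 1 further comparison, and day 6 is shown as levels. The labels give no deletion driver, no deleted exon, no clone number and no mouse strain. The cells therefore stand for 1 labelled line per genotype, and other differences between the lines cannot be told apart from the loss of Oct1.

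Oct1 is the product of Pou2f1. It is a widely expressed POU factor that binds the octamer, a short DNA word it shares with Oct4, the product of Pou5f1. Retinoic acid binds heterodimers of retinoic acid and retinoid X receptors on DNA and switches on direct targets, among them genes for its own breakdown and the 3′ Hox genes. In ESCs it ends pluripotency. The study's title places Oct1 beside Smad factors, which carry nodal, TGF-beta and BMP signals into the nucleus, and beside the specification of mesoderm.

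The Oct1 cKO libraries held 15424983, 16459522 and 14426904 counts, and the parental libraries held 18699153, 16856689 and 16936122. Levels are given as CPM, counts normalised to library size and scaled with TMM factors, which were 0.939 to 0.950 in the Oct1 cKO and 1.053 to 1.064 in parental libraries. Across genes, which are not independent replicates, log2 CPM correlated at 0.9933 to 0.9951 within a genotype and at 0.9464 to 0.9505 between genotypes. Ribosomal protein genes took 5.71 to 5.94% of the counts in the Oct1 cKO libraries and 4.29 to 4.43% in parental libraries. Mitochondrial genes took 1.40 to 1.55% of the counts in the Oct1 cKO libraries and 1.30 to 1.65% in parental libraries. The labelled state was met in both groups: retinoic acid targets such as Cyp26a1 (241 CPM in the Oct1 cKO, 377 CPM in parental) were high, and ESC genes such as Pou5f1 were still present.

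Pou2f1 (chromosome 1, 165865154 to 166002678, minus strand, GRCm38) had 64.9, 66.7 and 64.6 CPM in the Oct1 cKO libraries, against 117, 109 and 119 CPM in parental libraries. The 2 groups did not overlap, and the Oct1 cKO kept more than a trace of the transcript. The log2 fold change was -0.81 ± 0.05 (SE), with adjusted p = 2.79e-18 in edgeR's quasi-likelihood test with Benjamini-Hochberg adjustment, which is the test behind every adjusted p given here. The count covers the whole gene, so reads from exons outside a deletion are part of it and the value does not measure the deletion itself. Among the other POU genes, Pou5f1 rose and is described with the pluripotency genes. Pou2f3, the POU gene closest in class to Pou2f1 in this list besides Pou2f2, had 4.29, 5.57 and 4.33 CPM in the Oct1 cKO and 1.16, 0.733 and 1.23 CPM in parental libraries (log2 fold change 2.18 ± 0.22, adjusted p = 9.18e-12). It differed more at day 0, at 89.4 CPM in the Oct1 cKO and 8.56 CPM in parental cells (3.38 ± 0.08). Pou6f1 (0.37, not called with library sizes alone) rose too, whereas Pou3f1 (-0.73), Pou3f3 (-2.57) and Pou4f1 (-1.23), factors of neural development, fell. Pou2f2, which encodes Oct2, had 4.35 ± 0.743 CPM in the Oct1 cKO and 4.39 ± 0.234 CPM in parental cells (SD, n = 3), and Pou3f2 was not called either.

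A gene is said to rise or fall in the Oct1 cKO, or to be called, where its adjusted p was under 0.05 among the 16530 genes tested. The differences were broad. In all 12131 genes were called, 73.4% of those tested, with 5967 higher (36.1%) and 6164 lower (37.3%) in the Oct1 cKO. Each list count given below is to be read beside these shares. The groups did not overlap for 74.7% of the genes. Differences of at least 2-fold were called for 1024 genes higher (6.19%) and 2208 genes lower (13.4%), so large decreases outnumbered large increases. The median log2 fold change over all tested genes was -0.015. With library sizes alone in place of TMM factors that median moved by -0.164, and 4343 genes were called higher and 7840 lower, so a small difference close to this shift is sensitive to the scaling. Separate cultures are not stated in the labels for the libraries of a group, and each p measures the spread between these libraries.

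The 4 marker genes of this comparison all fell in the Oct1 cKO. Meox1, a homeobox gene of the somites (chromosome 11, 101877510 to 101894374), had 0.622, 0.576 and 0.367 CPM in the Oct1 cKO and 20.1, 23.2 and 22.4 CPM in parental libraries. Its 3 Oct1 cKO libraries held 23 counts together and the parental libraries 1212, and the log2 fold change was -5.36 ± 0.17 (adjusted p = 1.12e-27). Kdr, the VEGF receptor that marks early mesoderm and the endothelium (chromosome 5, 75932827 to 75978458), had 0.691, 1.02 and 0.66 CPM in the Oct1 cKO and 11.6, 12.4 and 10.4 CPM in parental libraries. No library of one group came near the other, and the difference was -3.82 ± 0.18 (adjusted p = 1.42e-21). Hoxb1, a direct target of the retinoic acid receptor expressed in the hindbrain (chromosome 11, 96365752 to 96368256), had 94.9, 100.2 and 96.3 CPM in the Oct1 cKO and 379, 386 and 394 CPM in parental libraries. Its transcript was abundant in both groups and 3.98-fold lower in the Oct1 cKO (log2 fold change -1.99 ± 0.04, adjusted p = 4.57e-33). Crabp2, which carries retinoic acid to the nucleus (chromosome 3, 87948666 to 87953376), had 11.1, 12.4 and 13.4 CPM in the Oct1 cKO and 146, 158 and 151 CPM in parental libraries. It was 12.3-fold lower (-3.62 ± 0.06, adjusted p = 8.84e-36). In bulk libraries such as these, fewer cells of a type and less RNA per cell cannot be told apart.

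**Figure D1:**
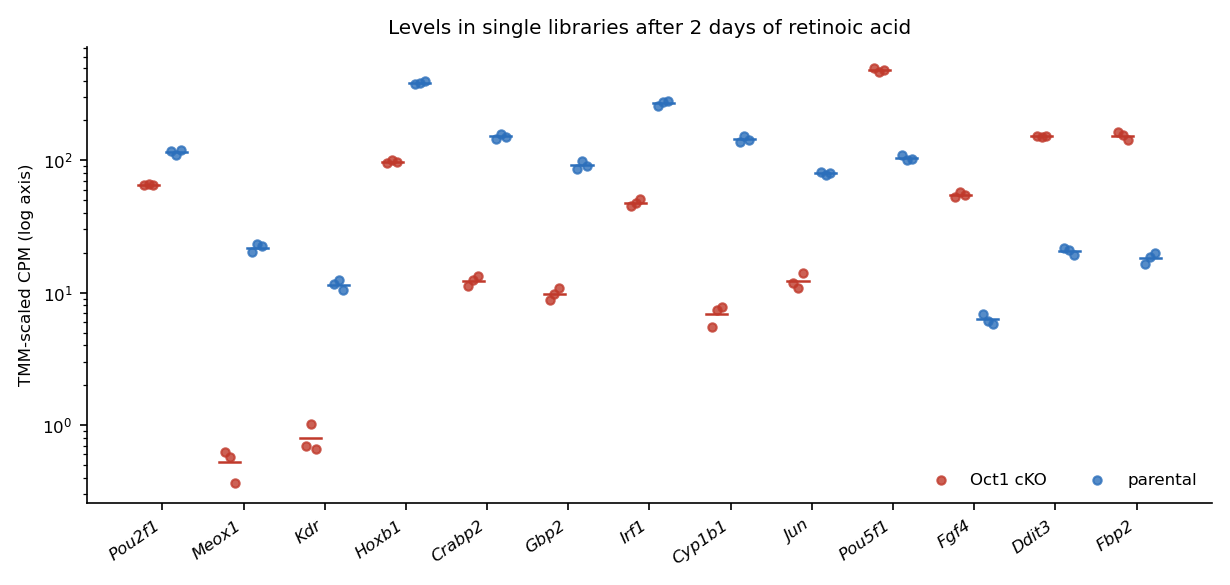
TMM-scaled CPM on a log axis in each of the 3 Oct1 cKO libraries (red, left of each pair) and the 3 parental libraries (blue) at day 2, with the group mean as a line, for 13 genes. The libraries of a group lie close together and the groups are apart for every gene shown: Meox1 and Kdr average 0.522 and 0.792 CPM in the Oct1 cKO against 21.9 and 11.4 CPM in parental cells, and Ddit3 and Fbp2 average 152 and 154 CPM in the Oct1 cKO against 20.7 and 18.3 CPM in parental cells.

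Retinoic acid target genes were lower as a list at day 2. Of 20 tested retinoic acid target genes, 18 fell, 1 rose and 11 fell at least 2-fold, with a median log2 fold change of -1.26 beside -0.015 over all genes. The lists were chosen with results of these data known, so their counts describe these libraries and are not independent evidence. Gbx2, a homeobox gene of the anterior hindbrain, had 4.7, 4.67 and 5.36 CPM in the Oct1 cKO and 32.2, 29.8 and 30 CPM in parental libraries (-2.65 ± 0.10, adjusted p = 1.3e-25). Lefty1, a nodal antagonist in this list, had 109, 99.8 and 104 CPM in the Oct1 cKO and 555, 511 and 554 CPM in parental libraries (-2.37 ± 0.05, adjusted p = 1.07e-34). The orphan receptors Nr2f1 (-2.51) and Nr2f2 (-1.71) and the meiotic gatekeeper Stra8 (-0.78; 315 CPM in the Oct1 cKO, 542 CPM in parental) fell as well. Cdx1, a caudal homeobox gene, was the member that rose (0.42 ± 0.09, adjusted p = 7.1e-05), and Nr6a1 was not called. Target transcripts were not absent, since Cyp26a1 reached 236, 243 and 245 CPM in the Oct1 cKO and 372, 387 and 372 CPM in parental libraries (-0.64 ± 0.04, adjusted p = 1.65e-17). A lower level at day 2 is not the same as a smaller rise from day 0. The day 2 difference minus the day 0 difference was -2.63 for Crabp2 and -2.13 for Rarb, but 2.20 for Stra8.

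Among genes that take up, bind and metabolise retinoids, 9 of 18 fell and 2 rose, with a median of -0.19. Stra6, the membrane receptor for the retinol carrier, had 47.6 ± 3.61 CPM in the Oct1 cKO and 119 ± 3.27 CPM in parental cells (-1.32 ± 0.05). Dhrs3, which reduces retinal, fell by 1.21, and Cyp26b1, which degrades retinoic acid, had 31.5, 31.8 and 33.9 CPM in the Oct1 cKO and 119, 136 and 135 CPM in parental libraries. The 2 cellular binding proteins went opposite ways: Crabp2 fell, and Crabp1 rose to 19.7 ± 2.78 CPM in the Oct1 cKO, against 8.15 ± 0.657 CPM in parental cells (1.26 ± 0.10, adjusted p = 8.13e-14). Rdh11, a retinol dehydrogenase, rose by 0.68, and Aldh1a2, the main enzyme that makes retinoic acid in the embryo, was at 3.61 CPM in the Oct1 cKO and 3.69 CPM in parental cells and was not called. The receptors and their coregulators were mixed, with 6 of 12 lower and 3 higher. Rarb, itself a target (-0.93 ± 0.10), Rara (-0.55) and Rxra (-0.48) fell. Rarg, the receptor that predominates in ESCs, had 95.9, 83.7 and 96.9 CPM in the Oct1 cKO and 37.5, 38 and 38.1 CPM in parental libraries (1.28 ± 0.06, adjusted p = 9.57e-23). The corepressor Nrip1 fell by 1.18, and the coactivator Ncoa3 rose by 1.11 on the log2 scale. At day 0 the median genotype difference of the target list was 0.40 and that of the metabolism list 0.21, so neither list was lower by its median before retinoic acid. The target median rests in part on genes with few counts at day 0. Hoxb1 had 1 count in the Oct1 cKO and 0 in parental libraries, Cyp26a1 17 and 13, and Rarb 34 and 17.

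Hox genes, which set positional identity and are opened in order from the 3′ end of each cluster by retinoic acid, were called lower in differing shares by cluster. All 10 tested HoxB genes fell, 7 of them at least 2-fold, with a median of -1.31. All of them lie on chromosome 11, whose genes were lower in general, as given further on, so the cluster and the chromosome cannot be told apart. Hoxb3 had 8.16, 8.26 and 8.37 CPM in the Oct1 cKO and 53.3, 54 and 58.3 CPM in parental libraries, 6.68-fold lower (-2.74 ± 0.08, adjusted p = 1.69e-29). Hoxb6 had 17.4, 17.1 and 21.4 CPM in the Oct1 cKO and 97, 106 and 97.9 CPM in parental libraries (-2.43 ± 0.07, adjusted p = 7.53e-28). Hoxb8 (-1.82), Hoxb2 (-1.36), Hoxb5 (-1.27), Hoxb4 (-1.21), Hoxb13 (-0.96), Hoxb9 (-0.75) and Hoxb7 (-0.61) fell less.

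The other 3 clusters lie on other chromosomes. In HoxA 7 of 10 tested genes fell (70.0%, beside 37.3% of all tested genes) and 1 rose. In HoxC 5 of 7 fell (71.4%) and 2 rose, and in HoxD 3 of 7 fell (42.9%) and 1 rose. Hoxa2 (-2.31), Hoxa3 (-0.97), Hoxa4 (-0.55), Hoxa5 (-0.63) and Hoxa7 (-0.68) fell, and so did Hoxa6 (-1.26), which did not pass when parental replicate 3 was left out (adjusted p = 0.0566). Hoxc5 had 6.5, 6.27 and 5.8 CPM in the Oct1 cKO and 18.1, 22.1 and 21.3 CPM in parental libraries (-1.72 ± 0.11). Hoxc9 (-2.53), Hoxc4 (-1.32), Hoxc8 (-1.21), Hoxc6 (-0.89), Hoxd3 (-1.20), Hoxd1 (-0.76) and Hoxd8 (-0.46) fell too. The members that rose lie toward the 5′ ends: Hoxa10 (0.89 ± 0.16), Hoxc13 (0.99 ± 0.16), Hoxd13 (0.38) and Hoxc10 (0.88), the last lost without replicate 1 of the Oct1 cKO (0.66, adjusted p = 0.0899). Their mean levels were at or below 7.32 CPM in the Oct1 cKO. Hoxa9, Hoxa13, Hoxd4, Hoxd9 and Hoxd11 were not called; with library sizes alone Hoxa9 (-0.39), Hoxa13 (-0.65), Hoxd4 (-0.44) and Hoxd9 (-0.37) were called lower and Hoxd13 (0.22) lost its call. Hoxa9 was also called lower with TMM factors from genes outside chromosome 11 (-0.26) and without replicate 2 of the Oct1 cKO (-0.32), and Hoxd11 higher without replicate 1 (0.92).

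**Figure D2:**
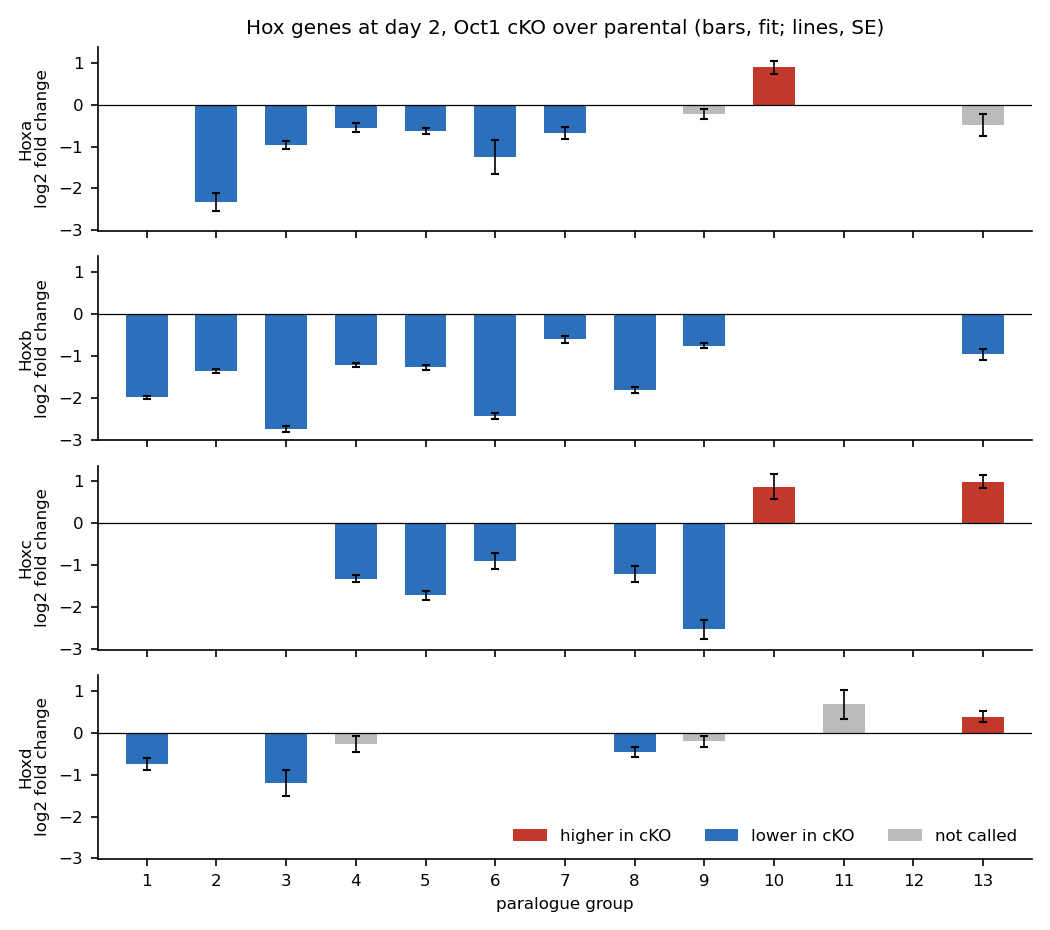
Log2 fold change of each tested Hox gene at day 2, Oct1 cKO over parental (bars) with its SE (lines), by paralogue group and cluster; a missing bar is a group with no gene in that cluster, no gene that passed the filter on low counts, or a gene not reported here. All HoxB bars point down, from -0.61 to -2.74, and the bars that point up and were called are Hoxa10, Hoxc10, Hoxc13 and Hoxd13.

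The TALE homeobox proteins bind DNA together with Hox proteins. Of 9 tested genes of this group, 5 fell by at least 2-fold and 1 rose. Meis2 had 37.1, 41 and 42.6 CPM in the Oct1 cKO and 128, 138 and 127 CPM in parental libraries (-1.70 ± 0.05, adjusted p = 1.2e-27). Meis1 on chromosome 11 (-1.73), Pknox2 (-1.68) and the low-level Meis3 (-2.19) fell as well. Pbx4 rose (1.28 ± 0.11, adjusted p = 7.52e-13). Pbx2, Pbx3 and Pknox1 were not called, but with library sizes alone they were called lower (-0.20, -0.32 and -0.31). Pbx3 and Pknox1 were also called lower with TMM factors from genes outside chromosome 11 (-0.19 and -0.18), and Pbx3 without replicate 1 of the parental group (-0.21).

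Pluripotency genes moved the other way. Of 26 genes of general and naive pluripotency, 19 rose, 14 of them at least 2-fold, and 3 fell, with a median of 1.09. The summed level of the list ran from 4970 to 5140 CPM in the Oct1 cKO libraries and from 2880 to 2910 CPM in parental libraries. Pou5f1 had 499.8, 464 and 478 CPM in the Oct1 cKO and 109, 99.7 and 103 CPM in parental libraries (2.21 ± 0.05, adjusted p = 3.86e-34). Its Oct1 cKO level at day 2 lay between the day 0 level and the day 2 level of parental cells. Pou5f1 was already higher at day 0, at 1517 CPM in the Oct1 cKO and 893 CPM in parental cells (0.76 ± 0.06). The median of the list at day 0 was 0.22. Tfcp2l1, a factor of the naive state, had 218, 212 and 212 CPM in the Oct1 cKO and 64.9, 59.7 and 59.5 CPM in parental libraries (1.80 ± 0.05, adjusted p = 1.1e-30). Tdgf1, a nodal co-receptor (1.72), Utf1 (1.76, and already 1.24 at day 0), Tbx3 (1.56), Tet2 (1.30), Esrrb (1.16), Tet1 (1.13) and Zfp42 (1.06) were higher too. Nanog and Sox2, which are at the core of the network with Pou5f1, differed far less. Nanog had 32.4, 28.3 and 33.9 CPM in the Oct1 cKO and 28.1, 25.2 and 23.6 CPM in parental libraries (0.29 ± 0.07, adjusted p = 0.000647), which did not pass on library sizes alone (0.13, adjusted p = 0.121). Sox2 had 49.6, 49.5 and 52.9 CPM in the Oct1 cKO and 41.4, 41.9 and 39 CPM in parental libraries (0.31 ± 0.06, adjusted p = 7.53e-06). Dppa2 (-1.35), Sall4 (-0.49) and Lin28a (-0.34) fell.

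Fgf4, a ligand whose enhancer is bound by Oct4 and Sox2, had 52.3, 57.4 and 54.7 CPM in the Oct1 cKO and 6.9, 6.15 and 5.81 CPM in parental libraries. It was 8.69-fold higher in the Oct1 cKO (3.12 ± 0.08, adjusted p = 9.51e-31). Of 10 genes with known Oct4 and Sox2 composite elements 8 rose, and the 2 that fell, Lefty1 and Nodal (-0.74), both belong to nodal signalling. Formative and primed genes were split: 8 of 13 rose, among them Zic2 (0.80) and Dnmt3b (0.54), and 4 fell, among them Fgf5 and Sox3 (-1.56). Fgf5, the classic marker of the primed state, had 0.691, 0.576 and 0.587 CPM in the Oct1 cKO and 4.73, 4.57 and 4.52 CPM in parental libraries (-2.88 ± 0.24, adjusted p = 4.14e-14).

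Mesoderm genes did not move as one. Of 9 tested genes of the primitive streak and nascent mesoderm 4 fell (44.4%, beside 37.3% of all tested genes) and 2 rose. T, Mixl1 and Evx1 were too low to be tested. Eomes, a T-box factor of the streak, had 10, 9.86 and 10.1 CPM in the Oct1 cKO and 16, 17.5 and 17.9 CPM in parental libraries (-0.77 ± 0.09, adjusted p = 1.23e-09). Lhx1, on chromosome 11, fell by 3.15 and Sp5, a Wnt target, by 2.98 on the log2 scale. Of 17 genes of paraxial and somitic mesoderm 8 fell (47.1%, beside 37.3% of all tested genes) and 3 rose. Foxc1, a forkhead factor of presomitic and head mesoderm, had 2.56, 3.07 and 3.45 CPM in the Oct1 cKO and 22.4, 25.8 and 24 CPM in parental libraries (-2.99 ± 0.12, adjusted p = 1.35e-24). Lfng, which modifies Notch in the segmentation clock (-1.80), Pax3 (-1.02) and Tcf15 (-0.68) fell, while Eya1 (1.44), Tbx18 (0.86) and Dll1 (0.42) rose. Foxc2, the paralogue of Foxc1, had 3.98 CPM in the Oct1 cKO and 3.36 CPM in parental cells and was not called. The list without Meox1, its one member on chromosome 11, had 7 of 16 genes lower.

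The genes of lateral plate and cardiac mesoderm had 7 of 19 lower (36.8%, a share near the 37.3% of all tested genes), 3 higher and 9 not called. Gata5 (-2.85 ± 0.30) and Foxf1 (-1.64 ± 0.16) fell, and Gata4 had 32.3, 34.6 and 31.8 CPM in the Oct1 cKO and 23.4, 20.4 and 23.3 CPM in parental libraries (0.56 ± 0.07, adjusted p = 4.77e-09). Gata6 was at 29 CPM in the Oct1 cKO and 12 CPM in parental cells (1.27 ± 0.08). Both factors are shared by heart, gut and extraembryonic endoderm. Of 18 endothelial and blood genes 14 fell (77.8%, beside 37.3% of all tested genes), 9 of them at least 2-fold, and 3 rose, with a median of -1.13 at day 2 and 0.23 at day 0. Fli1, an Ets factor of the endothelium, had 0.0691, 0.576 and 0.367 CPM in the Oct1 cKO and 5.08, 4.74 and 5.36 CPM in parental libraries (-3.85 ± 0.29, adjusted p = 2.52e-15). Tal1, a factor of blood and vessel precursors, had 0.691, 1.6 and 1.39 CPM in the Oct1 cKO and 8.36, 6.15 and 6.31 CPM in parental libraries (-2.49 ± 0.21, adjusted p = 3.2e-13). Etv2, which starts both lineages, was at 0.541 ± 0.169 CPM in the Oct1 cKO and 2.19 ± 0.25 CPM in parental cells. Sox18 (-2.32), Flt4 (-1.66), Gata2 (-1.28), Lmo2 (-0.97) and Eng (-0.66) fell, and Pecam1 (1.34), Runx1 (0.68) and Tie1 (0.41) rose. Pecam1 is also an ESC surface protein.

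**Figure D3:**
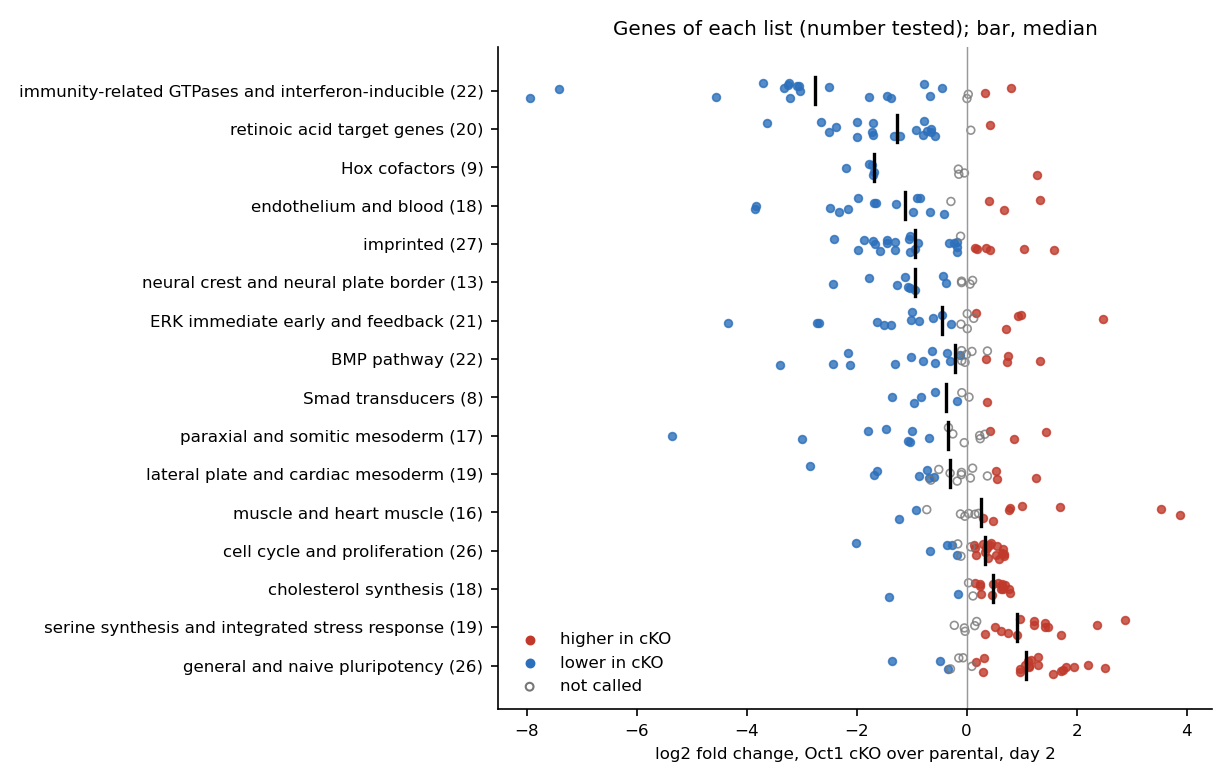
Log2 fold change at day 2, Oct1 cKO over parental, of each tested gene (points) in 16 gene lists, with the number tested in brackets and the list median as a bar; filled points passed the adjusted p threshold. The medians run from -2.76 in the interferon-inducible list and -1.68 in Hox cofactors at the low end to 0.92 in the serine synthesis and stress list and 1.09 in pluripotency at the high end.

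The receptor-activated Smads that carry BMP signals, Smad1, Smad5 and Smad9, all fell in the Oct1 cKO. Smad1 had 11.8, 12 and 11.4 CPM in the Oct1 cKO and 22.5, 19.4 and 20.3 CPM in parental libraries (-0.82 ± 0.09, adjusted p = 5.87e-11). Smad5 had 53.6, 55.3 and 55.5 CPM in the Oct1 cKO and 80, 78.8 and 84.9 CPM in parental libraries (-0.57 ± 0.05), and Smad9, the least abundant, fell by 1.35. The 2 Smads of nodal and TGF-beta signalling split: Smad3 had 28.6, 26.1 and 30.2 CPM in the Oct1 cKO and 50.1, 57.2 and 56.6 CPM in parental libraries (-0.95 ± 0.07, adjusted p = 2.99e-16), and Smad2 had 118, 122 and 121 CPM in the Oct1 cKO and 93.7, 90.5 and 95.7 CPM in parental libraries (0.37 ± 0.05, adjusted p = 2.76e-09). Smad4, the common partner, differed by 0.04 ± 0.05 (adjusted p = 0.427) with TMM factors and by -0.12 (adjusted p = 0.0191) with library sizes alone. The inhibitory Smad7 was not called, and the call of Smad6 (-0.18) was lost with the DESeq2 size factors, under DESeq2, with all 18 libraries in the fit and without any of 4 single libraries, parental replicates 2 and 3 and Oct1 cKO replicates 1 and 2 (-0.12 to -0.19).

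In the nodal and activin pathway 7 of 15 genes fell (46.7%, beside 37.3% of all tested genes) and 4 rose (26.7%, beside 36.1%). The median of this list was -0.04, beside -0.015 over all genes. The ligand Nodal (-0.74), its antagonists Lefty1 and Lefty2 (-1.19) and the activin antagonist Fst (-2.94) fell. The co-receptor Tdgf1, the DNA-binding partner Foxh1 (0.58) and the ligand-processing protease Pcsk6 (1.03) rose. In the BMP pathway 12 of 22 fell (54.5%, beside 37.3% of all tested genes) and 4 rose (18.2%, beside 36.1%). Bmp2 had 0.484, 0.96 and 0.587 CPM in the Oct1 cKO and 7.2, 7.62 and 7.15 CPM in parental libraries (-3.40 ± 0.21, adjusted p = 6.95e-18). The target Msx1 (-2.44), the antagonist Nog (-2.15) and the receptor Bmpr1b (-1.30) fell with it. Bmp6 rose to 26.4 ± 0.867 CPM in the Oct1 cKO, against 10.5 ± 0.585 CPM in parental cells (1.33 ± 0.08). The Id genes, direct BMP targets, were divided, with Id3 lower (-0.79) and Id1 (0.36) and Id2 (0.73) higher. Of 17 TGF-beta genes 10 fell (58.8%, beside 37.3%) and 4 rose (23.5%, beside 36.1%), or 2 with library sizes alone. Tgfb3 (-1.12) and the corepressor Ski (-0.80) were lower and Ccn2 (0.44) was higher. Of 25 Wnt genes 14 fell and 3 rose, among them the receptor Fzd2 (-2.11, on chromosome 11) and the ligands Wnt5a (-2.49) and Rspo3 (-2.62), both under 2 CPM in every library but 1.

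Genes of FGF signalling and of the ERK response were compared next. Among the FGF genes 6 of 15 rose (40.0%) and 6 fell (40.0%). These shares were near the 36.1% higher and 37.3% lower of all tested genes. Besides Fgf4, the ligand Fgf3 rose (1.53), and the receptors Fgfr1 (-0.61) and Fgfr2 (-0.80) fell. Of 21 tested immediate early and feedback genes of ERK signalling 12 fell (57.1%, beside 37.3%) and 5 rose (23.8%, beside 36.1%). Egr1, a zinc finger factor induced within minutes by ERK, had 0.899, 1.41 and 1.1 CPM in the Oct1 cKO and 24.6, 23.4 and 21.9 CPM in parental libraries (-4.34 ± 0.14, adjusted p = 3.91e-27). Jun had 11.9, 10.8 and 14 CPM in the Oct1 cKO and 81.6, 77.3 and 80.7 CPM in parental libraries (-2.71 ± 0.07, adjusted p = 1.45e-30). Dusp6, a phosphatase of ERK, had 95.6, 89.6 and 95.9 CPM in the Oct1 cKO and 254, 279 and 264 CPM in parental libraries (-1.50 ± 0.05). Junb (-2.69), Dusp5 (-1.63), Myc (-0.87) and Fos (-0.62) were lower, and the Ets factors Etv4 and Etv5 (0.98), the sprouty Spry2 (0.71) and Dusp4 (0.93) were higher. Etv4 had 57.9, 55.2 and 65.1 CPM in the Oct1 cKO and 10.8, 10.7 and 10.7 CPM in parental libraries (2.47 ± 0.07, adjusted p = 1.29e-28), although it lies on chromosome 11. Etv1, an Ets factor of the same group, had 33.7, 38.2 and 37.1 CPM in the Oct1 cKO and 48.3, 48.9 and 50.9 CPM in parental libraries and fell (-0.44 ± 0.06, adjusted p = 2.19e-08).

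Interferon-inducible genes had the lowest median of any list. Immunity-related GTPases and guanylate-binding proteins defend cells against intracellular microbes and are switched on by interferons through Stat and Irf factors. Of 22 tested genes 18 fell (81.8%, beside 37.3% of all tested genes), 15 of them at least 2-fold, and 2 rose. The median was -2.76 at day 2 and 0.19 at day 0. Some members were low at day 0, such as Gbp2 at 0.746 CPM in the Oct1 cKO and 0.340 CPM in parental cells. Without the 4 members on chromosome 11, 14 of 18 fell. The summed level of the list ran from 468 to 476 CPM in the Oct1 cKO libraries and from 923 to 957 CPM in parental libraries. Gbp2 had 8.85, 9.73 and 10.9 CPM in the Oct1 cKO and 85.3, 98.1 and 91.1 CPM in parental libraries (-3.22 ± 0.07, adjusted p = 1.41e-31). Irgm1, on chromosome 11, had 1.87, 1.98 and 2.86 CPM in the Oct1 cKO and 49.9, 50.8 and 55.9 CPM in parental libraries (-4.55 ± 0.11, adjusted p = 7.66e-32). Isg15, a ubiquitin-like protein, had 0.899, 0.32 and 0.66 CPM in the Oct1 cKO and 6.9, 7.67 and 9.83 CPM in parental libraries (-3.70 ± 0.23, adjusted p = 1.42e-16). Ifit1 had 0 counts in the 3 Oct1 cKO libraries together and 102 in the parental libraries, which makes it at least 26.8-fold lower when the floor is set at 3 counts over the group.

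Promoters of these genes share a word. Interferon-stimulated response elements are built around GAAA repeated with 2 bases of any kind between, and 12 of the 20 list members with a RefSeq promoter window (60.0%) held that word on either strand between 250 bases before and 50 bases after the gene start. Of all 11979 tested genes with a window 415 (3.46%) held it, as did 23 of 576 genes higher by at least 2-fold (3.99%) and 78 of 1531 genes lower by at least 2-fold (5.09%). The word was chosen after the list was seen to be lower, so these shares are a description, and a match is not a bound site. The stretches below show the word in capitals, with up to 30 bases on either side and not past the gene start, on the strand of the gene (RefSeq, GRCm38.p6). They lie at chr3:142620574-142620643 for Gbp2, chr11:48871421-48871480 for Irgm1, chr4:156200857-156200926 for Isg15 and chr19:34640755-34640824 for Ifit1. Where matches overlap, as in Irgm1 and Isg15, the run of capitals is their union.
Gbp2: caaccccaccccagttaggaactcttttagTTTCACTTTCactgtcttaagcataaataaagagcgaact
Irgm1: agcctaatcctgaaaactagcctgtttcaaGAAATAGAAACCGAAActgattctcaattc
Isg15: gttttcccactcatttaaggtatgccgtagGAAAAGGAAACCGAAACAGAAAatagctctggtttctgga
Ifit1: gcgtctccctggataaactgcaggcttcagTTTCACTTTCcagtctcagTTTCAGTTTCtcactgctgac

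The word did not separate the members that fell from the others, since Stat2 and Bst2, which rose, and B2m, which was not called, held it too. The factors of the pathway were themselves divided. Irf1, a factor that activates this class of genes (chromosome 11), had 44.9, 47.3 and 51.1 CPM in the Oct1 cKO and 255, 278 and 280 CPM in parental libraries (-2.50 ± 0.05, adjusted p = 5.32e-34). Irf7 fell by 1.46 on the log2 scale at under 2 CPM, and Irf9 was at 11.2 CPM in the Oct1 cKO and 11.1 CPM in parental cells and was not called. Stat2 had 105, 112 and 103 CPM in the Oct1 cKO and 65.1, 55.8 and 63.3 CPM in parental libraries (0.80 ± 0.05, adjusted p = 2.14e-16). Psmb8 (-3.09) and Psmb9 (-1.38), subunits of the immunoproteasome, and the peptide transporter Tap1 (-0.66) fell. The 2 sensors of viral RNA below belong to no list and were among the largest decreases of all: Tlr3 was at 0.164 CPM in the Oct1 cKO and 3.88 CPM in parental cells (-4.53 ± 0.34), and Ifih1 at 0.275 CPM in the Oct1 cKO and 5.89 CPM in parental cells (-4.38 ± 0.27). How reads of close family members were split is not given in the sources used here, so a single GTPase level is less certain than the list.

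Amino acid stress and serine genes rose. The list of serine synthesis and the integrated stress response, which the factor Atf4 controls, had 14 of 19 genes higher and 0 lower, with 5 not called, a median of 0.92 at day 2 and 0.02 at day 0. With library sizes alone 13 were higher and 3 lower. Ddit3, which encodes the stress factor Chop, had 153, 150 and 153 CPM in the Oct1 cKO and 21.7, 21 and 19.3 CPM in parental libraries (2.88 ± 0.06, adjusted p = 5.32e-35). Cth, which makes cysteine, had 134, 135 and 145 CPM in the Oct1 cKO and 25.1, 28.5 and 26.4 CPM in parental libraries (2.37 ± 0.06, adjusted p = 4.18e-32). Cth was already higher at day 0, at 288 CPM in the Oct1 cKO and 111 CPM in parental cells (1.37 ± 0.05). The day 0 differences of Ddit3 (0.04 ± 0.12) and Atf4 (0.18 ± 0.05) were smaller. Atf4 itself had 468, 434 and 458 CPM in the Oct1 cKO and 167, 173 and 165 CPM in parental libraries (1.43 ± 0.04, adjusted p = 1.35e-28). Asns (1.21), the mitochondrial folate enzyme Mthfd2 (1.42), Trib3 (1.72), Chac1 (1.49), Psat1 (0.62) and Phgdh (0.51) rose. Atf3 and Sesn2, stress genes of the same list, were not called.

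Cholesterol synthesis genes rose by smaller amounts, 14 of 18 higher and 2 lower, with a median of 0.48 at day 2 and -0.28 at day 0. The summed level of the list ran from 4440 to 4720 CPM in the Oct1 cKO libraries and from 3110 to 3290 CPM in parental libraries. Of 24 glycolysis genes 16 rose (66.7%, beside 36.1% of all tested genes) and 4 fell (16.7%, beside 37.3%). Their median was 0.23, and 11 were higher and 6 lower with library sizes alone. Pfkp (1.72) and Gpi1 (1.03) were higher and the glucose transporter Slc2a1 was lower (-0.75). Fructose-bisphosphatases run the opposing step: Fbp2 had 164, 155 and 143 CPM in the Oct1 cKO and 16.5, 18.6 and 19.8 CPM in parental libraries (3.07 ± 0.06, adjusted p = 3.34e-31), and Fbp1 was at 7.72 CPM in the Oct1 cKO and 0.644 CPM in parental cells (3.56 ± 0.20). The gluconeogenesis and glycogen list had 5 of 14 genes higher (35.7%, near the 36.1% of all tested genes) and 3 lower (21.4%), with a median of 0.06. Of 26 cell cycle genes 18 rose (69.2%) and 5 fell (19.2%), mostly by small amounts, such as Ccna2 (0.67). The cyclin gene Ccnd2 had 16.4, 15.7 and 20.3 CPM in the Oct1 cKO and 67.1, 74.2 and 68.8 CPM in parental libraries (-2.01 ± 0.07). Of 18 p53 targets and death genes 12 rose (66.7%, beside 36.1%) and 3 fell (16.7%, beside 37.3%). Gdf15 (2.50), Bbc3 (1.04), Pmaip1 (0.97) and Cdkn1a (0.64) were among those higher.

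Histone H2B genes are classic carriers of the octamer, through which Oct1 drives them in S phase. Of 11 tested H2B genes 7 were lower (63.6%, beside 37.3% of all tested genes) and 1 was higher at day 2, and under DESeq2 4 were lower. Their median was -0.69 at day 2 and -0.80 at day 0. Hist1h2bm had 1.11, 1.15 and 0.734 CPM in the Oct1 cKO and 2.01, 1.75 and 2.07 CPM in parental libraries (-0.95 ± 0.27, adjusted p = 0.00168). Hist1h2bh (-2.55), Hist1h2bj (-0.77) and Hist3h2ba (-0.71, on chromosome 11) fell under DESeq2 too. Hist1h2be (-0.98), Hist1h2bk (-0.69) and Hist1h2bg (-0.62) were not called by DESeq2 (adjusted p = 0.0509, 0.0746 and 0.148), and the last was also lost without any of 4 single libraries (-0.40 without replicate 3 of the Oct1 cKO) and Hist1h2bk without parental replicate 3 (-0.55) or Oct1 cKO replicate 2 (-0.60). Hist2h2be rose (0.67), and Hist1h2bb, Hist1h2bc and Hist1h2bp were not called. Most of these levels were under 2 CPM, transcripts of this kind lack the usual poly(A) tail, and near-identical copies can share reads. The other replication-dependent histones, of which 4 of 27 with a window held it, had 18 of 28 lower, 0 higher and a median of -0.76, and 12 were lower under DESeq2. The difference between both lists was not tested.

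The octamer ATGCAAAT was in the promoter window of 5 of 9 H2B genes with a window (55.6%) and of 208 of the 11979 tested genes (1.74%), on either strand. It was in 12 of 576 genes higher by at least 2-fold (2.08%) and 30 of 1531 genes lower by at least 2-fold (1.96%), shares close to that of all genes. The 5 windows that held it are shown because they give the octamer in its best known setting, in capitals with up to 30 bases on either side on the strand of the gene (RefSeq, GRCm38.p6), where it reads as its reverse complement. They lie at chr13:23746614-23746681 for Hist1h2bb, chr13:23586000-23586067 for Hist1h2be, chr13:23571311-23571378 for Hist1h2bg, chr13:22035761-22035820 for Hist1h2bk and chr13:21721989-21722043 for Hist1h2bm.
Hist1h2bb: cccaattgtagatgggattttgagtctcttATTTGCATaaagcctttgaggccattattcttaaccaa
Hist1h2be: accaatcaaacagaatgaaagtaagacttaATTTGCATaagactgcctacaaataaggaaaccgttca
Hist1h2bg: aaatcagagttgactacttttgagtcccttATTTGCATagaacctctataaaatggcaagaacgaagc
Hist1h2bk: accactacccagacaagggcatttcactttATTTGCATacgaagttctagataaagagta
Hist1h2bm: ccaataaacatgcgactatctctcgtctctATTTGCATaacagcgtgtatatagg

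Of these 5, Hist1h2bb was not called and the other 4 fell in edgeR. The retinoic acid element searched was a direct repeat of AGGTCA with 5 bases between, on either strand and with no mismatch, and 0 of 14 retinoic acid targets with a window held it, beside 1 gene of 11979. Such elements often lie farther from the start or differ from this word, so no match in these letters and this window says nothing about the receptor.

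Imprinted genes, expressed from 1 parental allele and many of them growth regulators, were mostly lower: 20 of 27 fell, 13 at least 2-fold, and 6 rose, with a median of -0.93 at day 2 and 0.03 at day 0. Mest had 274, 272 and 280 CPM in the Oct1 cKO and 1414, 1555 and 1430.2 CPM in parental libraries (-2.41 ± 0.05, adjusted p = 2.82e-35). H19, a noncoding RNA beside Igf2, averaged 730 ± 21.6 CPM in the Oct1 cKO and 2677 ± 99.9 CPM in parental cells (-1.87 ± 0.04, adjusted p = 2.6e-32), and Igf2 itself was low in both groups (-1.30). Nnat (-1.98), Ndn (-1.66), Peg3 (-1.57), Peg10 (-1.45) and Rian (-0.93) fell. Snrpn (0.43) and Copg2 (0.35) rose. Regulators of DNA methylation were higher in 9 of 16 cases and lower in 4. Dnmt3l, the cofactor of the de novo methyltransferases, had 961, 965 and 941 CPM in the Oct1 cKO and 384, 423 and 415 CPM in parental libraries (1.23 ± 0.04, adjusted p = 1.9e-26), and Tet3 fell (-0.99) while Tet1 and Tet2 rose. Of 16 genes of Polycomb complex 2 and H3K27 demethylases 13 rose and 3 fell, among them Jarid2 (0.99), Eed (0.83) and Ezh2 (0.48) higher and Kdm6b, on chromosome 11, lower (-0.76).

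Markers of the other cell types that such cultures can hold were compared as lists. Over all tested genes 37.3% were lower and 36.1% higher. Of 15 neural progenitor genes 10 fell (66.7%) and 2 rose (13.3%). Sox1 had 0.553, 1.09 and 0.954 CPM in the Oct1 cKO and 5.99, 5.53 and 6.14 CPM in parental libraries (-2.75 ± 0.21, adjusted p = 6.33e-15). Nes fell by 1.76 and Pax6 by 0.89, and Olig2 rose (1.88). Of 13 genes of the neural crest and plate border 9 fell (69.2%) and 0 rose, with a median of -0.94. Sox10 had 4.63, 4.55 and 3.96 CPM in the Oct1 cKO and 15.2, 15.7 and 14.3 CPM in parental libraries (-1.78 ± 0.12). Neuronal genes were split, 8 of 15 lower (53.3%) and 5 higher (33.3%). The intermediate filament gene Ina was lower (-2.21). Stmn2 was higher, at 128, 125 and 133 CPM in the Oct1 cKO and 33.5, 30.7 and 30.2 CPM in parental libraries (2.03 ± 0.05, adjusted p = 2.2e-30). Of 20 genes of extraembryonic endoderm 11 rose and 5 fell. The risers included basement membrane genes, such as Col4a1 at 1061, 1063 and 976 CPM in the Oct1 cKO and 388, 372 and 387 CPM in parental libraries (1.43 ± 0.04), Lama1 (1.29) and Col4a2 (1.24). The uptake genes Cubn (0.41 ± 0.08) and Amn (0.38 ± 0.16) rose too, and so did Gata4 and Gata6, given above. The apolipoprotein gene Apob fell (-3.33 ± 0.19). Ttr held 3 counts over the Oct1 cKO libraries and 72 over the parental ones, a ratio of 18.9 (95% interval 6.21 to 93.8, for counting error only). Of 12 definitive endoderm genes 6 fell and 2 rose, and of 13 trophoblast genes 8 fell and 3 rose. Of the 16 listed trophoblast genes 14 had a count in the Oct1 cKO and 14 in parental libraries, and 1 of the 13 tested was higher under DESeq2 or with library sizes alone. The part of these markers in the other results was not tested.

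Mesenchymal and matrix genes were lower in 12 of 20 cases and higher in 4. Cdh2, the cadherin of mesenchyme and neural cells, had 3.87, 4.1 and 4.33 CPM in the Oct1 cKO and 29.6, 32.1 and 27.9 CPM in parental libraries (-2.87 ± 0.10, adjusted p = 6.59e-26). Zeb2, a repressor of epithelial genes, had 3.8, 3.01 and 4.33 CPM in the Oct1 cKO and 20.6, 20.6 and 20.5 CPM in parental libraries (-2.48 ± 0.11). Has2, the hyaluronan synthase of the embryo, fell by 4.29 on the log2 scale. Hapln1, which links hyaluronan in the matrix, held 1 count over the Oct1 cKO libraries and 181 over the parental ones, a ratio of 142 (95% interval 25.3 to 5660, for counting error only). Fibronectin, Fn1, averaged 1777 ± 59 CPM in the Oct1 cKO and 679 ± 50.7 CPM in parental cells (1.39 ± 0.05). The epithelial junction list was split, with 7 of 18 genes higher (38.9%) and 6 lower (33.3%) and a median of 0.09. These shares were near the 36.1% higher and 37.3% lower of all tested genes. Cdh1 (0.40) and Epcam (0.59) rose, Esrp2 (-1.63), Dsp (-1.08) and Grhl2 (-0.50) fell, and 3 were higher and 7 lower with library sizes alone. Beside these, the fibroblast list, kept for feeder cells, had 11 of 16 genes lower and 3 higher, with a summed level of 538 to 579 CPM in the Oct1 cKO libraries and 599 to 639 CPM in parental libraries. Its median was -0.56 at day 2 and -1.18 at day 0. Col1a2 was at 19.5 ± 2.71 CPM in the Oct1 cKO and 84 ± 4.83 CPM in parental cells (-2.11 ± 0.07), Dcn was at 0.594 CPM in the Oct1 cKO and 1.14 CPM in parental cells, and none of the tested fibroblast markers was at 0 in either group. Their part in the mesoderm and matrix results was not tested.

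Chromosome 11 differed from the other autosomes. Its 992 genes with at least 5 CPM had a median of -0.39 on the log2 scale, and 70.6% of them were called lower, whereas the medians of the other 18 autosomes ran from 0.03 to 0.15 with 27.2 to 36.1% lower. Each Oct1 cKO library showed it against the parental mean. Meox1, Irgm1, Irf1, Meis1 and the HoxB genes lie there and differed by more than this median, and Etv4 and Pecam1 lie there and rose. The median of the 8 chromosome Y genes at this level was 0.98, with Uty (1.46), Ddx3y (1.32) and Eif2s3y (1.30) higher and Kdm5d (-1.12) and Uba1y (-0.33) lower. Gene dosage was not measured, and the part of either chromosome in the list results was not tested beyond the counts without chromosome 11.

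**Figure D4:**
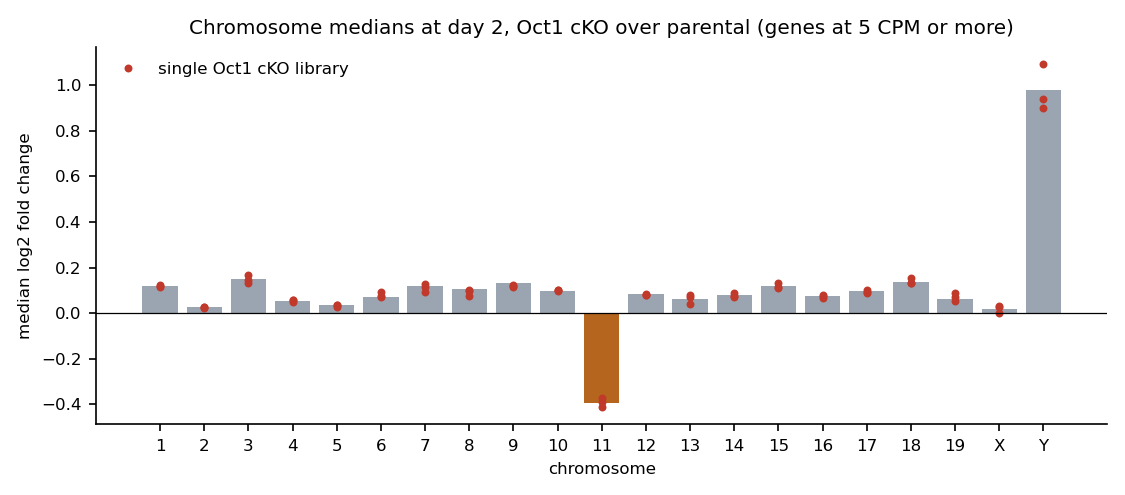
Median log2 fold change at day 2, Oct1 cKO over parental, of the genes at 5 CPM or more on each chromosome (bars), with the median of each Oct1 cKO library against the parental mean (points). Chromosome 11 has a median of -0.39 and chromosome Y, with 8 genes, one of 0.98, and the other autosomes lie between 0.03 and 0.15.

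Whether the genotype difference was already there before retinoic acid was asked by its day 2 value minus its day 0 value, in a fit of all 18 libraries. This interaction was called for 10461 of 18352 genes (57.0%). Of the 12 genes named for it 10 were called, all except Pou2f1 (-0.08 ± 0.14, adjusted p = 0.66) and Hoxb1 (adjusted p = 0.101), which had 1 count in the Oct1 cKO and 0 in parental libraries at day 0. Meox1 had 12 counts in the Oct1 cKO and 4 in parental libraries at day 0, so its day 0 level was near the limit of detection in both genotypes. Kdr was at 1.51 CPM in the Oct1 cKO and 1.1 CPM in parental cells at day 0 (0.42 ± 0.26, adjusted p = 0.176), and its difference at day 2 was lower by 4.22 ± 0.35. Crabp2 was already lower at day 0, at 3.96 CPM in the Oct1 cKO and 7.88 CPM in parental cells (-0.97 ± 0.14), and the difference was 2.63 larger at day 2. Fgf4 was slightly lower in the Oct1 cKO at day 0 (-0.32 ± 0.05) and higher at day 2, so its difference changed sign. Over the genes lower by at least 2-fold at day 2 the median day 0 difference was -0.07, and over those higher by at least 2-fold it was 0.18. These sets were chosen at day 2 and share no library with the day 0 values, although the interaction shares the day 2 libraries.

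Some differences at day 2 were absent or reversed at day 0. Irgm1 was higher in the Oct1 cKO at day 0, at 11.8 CPM against 6.77 CPM in parental cells (0.81 ± 0.11), Mest was higher at day 0 (0.61 ± 0.05), and Ddit3 was at 6.61 CPM in the Oct1 cKO and 6.5 CPM in parental cells. Stra8 had a larger deficit at day 0 (-2.96 ± 0.12; 3.59 CPM in the Oct1 cKO, 28.5 CPM in parental) than at day 2. At day 6 Kdr averaged 12.9 CPM in the Oct1 cKO and 226 CPM in parental cells, and Meox1 averaged 1.21 CPM in the Oct1 cKO and 2.4 CPM in parental cells. Pou5f1 was at 31 CPM in the Oct1 cKO and 0.362 CPM in parental cells at day 6. The levels over the days use the scaling of all 18 libraries, so they differ a little from those of the day 2 fit.

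**Figure D5:**
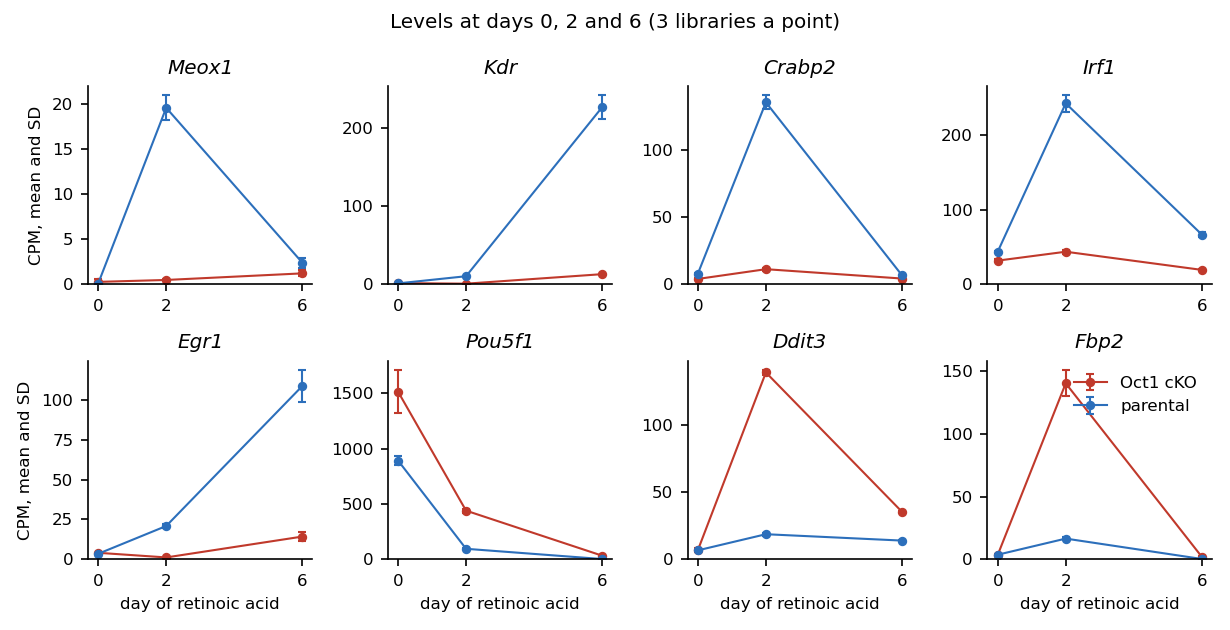
Mean CPM and SD (3 libraries a point) of 8 genes at days 0, 2 and 6 in Oct1 cKO (red) and parental (blue) cells, each panel with its own axis from 0. Parental Meox1, Crabp2 and Irf1 peak at day 2 and the Oct1 cKO lies below parental at that day, Kdr and Egr1 are highest at day 6 in parental cells, and Ddit3 and Fbp2 peak at day 2 in the Oct1 cKO.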

How the data were processed

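Whole-number counts per Ensembl gene, deposited by the authors with no normalization, were used for 6 libraries, and for all 18 libraries in the day comparison. Novoalign, the builds mm10 and GRCm38, and DESeq2 1.10.0 are named, without roles, per the submitters' processing notes. How reads were assigned to genes, by strand and where they map more than once, is not given in the sources used here. All 21995 IDs matched GENCODE M21 (GRCm38). Libraries were grouped by genotype and day in the labels.

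The test was edgeR 4.0.16 in R 4.3.3 (TMM, filterByExpr with minimum counts of 10 and 15, robust quasi-likelihood fit). It was checked on simulated data in which few genes differed, by equal amounts up and down. That check does not cover the scaling or the calls where 73.4% of genes are called, as here. SE is the log2 fold change over the square root of F. Chi-square values between replicates, 1.79 to 4.14 per degree of freedom, lay above sampling noise in all 6 pairs, so no library was a copy of another. They do not show whether the libraries came from separate cultures. A group at 0 is given a floor of 3 counts; low-count ratios have exact 95% binomial intervals, for counting error only.

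The 48 lists, from textbook knowledge, and the members were chosen with earlier results of these data known. Named genes are Pou2f1, the 4 markers, the 12 largest changes either way (mean log2 CPM of at least 1, groups apart), up to 8 per list by adjusted p, its uncalled members, every Hox, Smad, POU and H2B gene, and 12 genes of the day comparison. Alternatives were other scalings, no filter, DESeq2 1.42.0, all libraries, a fold of 2, no chromosome 11 and leaving out each library. The GAAA word was added after the data were seen. Some genes under the rule are not reported here.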

Additional observations from a re-analysis of the deposited data

Results flagged for a closer look

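The genotype difference at day 2 differed from that at day 0, by the interaction term of edgeR's quasi-likelihood test, for 10 of the 12 genes named for it. The same term was called for 57.0% of all 18352 genes in that fit, so a call alone does not set these genes apart. On the log2 scale the day 2 difference (Oct1 cKO over parental) minus the day 0 difference was -7.07 for Meox1, -4.22 for Kdr, -2.63 for Crabp2, -2.73 for Foxc1, -2.13 for Rarb and -1.24 for Cyp26a1. It was 3.47 for Fgf4, 1.47 for Pou5f1, 0.39 for Sox2 and 0.21 for Nanog. Meox1 and Cyp26a1 held few counts at day 0 (12 and 17 in the Oct1 cKO, 4 and 13 in parental libraries), so the size of their values rests on those counts. The Nanog call was lost under DESeq2 (0.14), with library sizes alone (0.04) and without any of 8 single libraries, among them parental replicate 3 of day 2 (0.11), and the Cyp26a1 call without any of 5 single libraries of day 0, among them parental replicate 1 (-1.06).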

How the results depend on the processing

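The counts of genes called stayed within 1.5 times of the values given, and the 4 markers and Pou2f1 kept direction and call, under other scalings, without the filter, under DESeq2, with all 18 libraries and without single libraries. With a fold of at least 2 the counts fell to 1024 higher and 2208 lower. Library sizes alone gave 4343 higher and 7840 lower, 35.6% of calls higher against 49.2%. Without single libraries 5686 to 5904 genes were higher and 5904 to 6088 lower. The chromosome 11 median was -0.43 over genes at 1 CPM or more. Of 355 named genes 324 kept direction and side under all 12 settings. With library sizes alone Smad4 (-0.12) reversed sign, in a setting that moved the median over all tested genes by -0.164. The cause was not tested. With library sizes alone the lower genes went to 8 of Hox cofactors, 5 of HoxD, 6 of pluripotency, 7 of DNA methylation, 5 of p53 target and 8 of extraembryonic endoderm genes, and the higher genes to 1 of fibroblast, 1 of primitive streak (also 1 under DESeq2) and 0 of HoxD genes. No paired analysis was possible because the labels carry no replicate numbers. At this depth, genes under about 1 CPM rest on few counts (Meox1 had 23 in the Oct1 cKO), and 0 counts in a group allow up to 3.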

Other observations

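Among the 12 largest increases were genes of muscle. Mymx, which encodes a peptide of myoblast fusion, had 28.3, 24.1 and 31.9 CPM in the Oct1 cKO and 1.91, 1.92 and 1.9 CPM in parental libraries (log2 fold change 3.87 ± 0.13), and Stac3, an adaptor of muscle excitation, had 19.7, 16.7 and 19.3 CPM in the Oct1 cKO and 1.76, 1.24 and 1.79 CPM in parental libraries (3.52 ± 0.14). Mymx was already higher at day 0, at 40.4 CPM in the Oct1 cKO and 7.73 CPM in parental cells (2.39 ± 0.10), and Stac3 was at 0.887 CPM in the Oct1 cKO and 0.393 CPM in parental cells (1.12 ± 0.38). The muscle list as a whole had 8 of 16 genes higher and 2 lower, beside 36.1% higher and 37.3% lower of all tested genes. Ttn (1.70) and Myl7 (0.79) were higher, and Acta1 (-1.23) and Acta2 (-0.92) were lower. Tnnt2, Tnnc1 and Tnni1 were not called and near or under 1 CPM. Myod1, Myog and Actc1 were too low to be tested. Cyp1b1, a target of the Ah receptor, had 5.53, 7.43 and 7.78 CPM in the Oct1 cKO and 138, 152 and 143 CPM in parental libraries (-4.38 ± 0.08). Another target, Nqo1, rose (1.01), as did the receptor's partner Arnt (0.88), and the repressor Ahrr fell (-1.38). Ednrb, the endothelin receptor of the neural crest, held 3 counts over the Oct1 cKO libraries and 229 over the parental ones, a ratio of 60.1 (95% interval 20.3 to 294). Of 17 genes of the 2-cell-like state 12 were higher and 3 lower at day 2, with a median of 0.66, against a day 0 median of 2.26; Zfp352 was at 47.9 CPM in the Oct1 cKO and 13.2 CPM in parental cells, and near-identical members of the Zscan4 and Usp17 families may share reads.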
